A study of Mus musculus with 30 samples.

Results

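The anterior-posterior patterning transcription factors described here are *Alx1*, *Alx4*, *Pax1*, *Pax9*, *Irx3*, *Irx5*, *Hand2*, *Sall1* and *Sall4*, 9 of the 50833 genes of the deposited count table, chosen by gene symbol from a list of names. All 9 were found and all 9 passed the filter on low counts in every comparison. They were followed in forelimb buds of WT Swiss Albino mouse embryos whose mothers received a single intraperitoneal injection at E10.5 of either Wnt-C59 (C59), an inhibitor of porcupine, the enzyme that WNT ligands need to be secreted, or the solvent DMSO alone. Forelimb buds were collected 1, 6, 12, 18 and 24 h later, giving 10 groups of 3 polyA RNA-seq libraries and 30 libraries in all, each made from the pair of forelimb buds of an embryo. The drug reached the whole embryo and blocks canonical as well as non-canonical WNT ligands. Neither group carried a mutation. The study's methods describe replicates as different embryos drawn from several litters for each condition and time, while the litter of each library is not given in the labels. In such bulk samples, fewer cells of a type and less RNA per cell cannot be told apart.

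The limb bud is patterned along its anterior (thumb) to posterior (little finger) axis by opposing sets of transcription factors. HAND2 marks the posterior mesenchyme and switches on *Shh*, the signal of the posterior polarizing region, whereas GLI3 and ALX4 act in the anterior mesenchyme and keep *Shh* out of it. ALX1 and ALX4 are paired-type homeodomain proteins. PAX1 and PAX9 are paired-box proteins known from the sclerotome, with PAX1 also used in the shoulder girdle region and PAX9 in the anterior mesenchyme of the autopod. IRX3 and IRX5 are Iroquois homeodomain proteins needed early for proximal and anterior skeletal elements. SALL1 and SALL4 are zinc finger proteins of early limb mesenchyme whose loss disturbs the formation of digits and, for SALL4, of anterior skeletal elements.

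The genes lie on 4 chromosomes of mm10. *Alx1* (ENSMUSG00000036602) is on the minus strand at chr10:102998707-103030215. *Alx4* (ENSMUSG00000040310) spans chr2:93642384-93681339 and *Pax1* (ENSMUSG00000037034) chr2:147361925-147375053, both on the plus strand, with *Sall4* (ENSMUSG00000027547) on the minus strand of the same chromosome at chr2:168748332-168767201. *Pax9* (ENSMUSG00000001497) is on the plus strand at chr12:56691767-56712822. *Hand2* (ENSMUSG00000038193) spans chr8:57320983-57324633 and *Irx5* (ENSMUSG00000031737) chr8:92357625-92376286 on the plus strand. *Sall1* (ENSMUSG00000031665) spans chr8:89027235-89044162 and *Irx3* (ENSMUSG00000031734) chr8:91798525-91802067 on the minus strand. *Irx3* and *Irx5* are neighbours in the genome, 556 kb apart.

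Promoter windows from RefSeq (GRCm38.p6), which reach from 250 bases before a gene's start to 50 bases after it, matched 5 of the 9 genes, namely *Pax1*, *Pax9*, *Irx3*, *Hand2* and *Sall1*, the last with 3 windows. The 250 bases before the start are shown for *Hand2* and *Sall1*, the genes whose RefSeq start is also the start of the gene in the deposited table, because *Hand2* is the posterior determinant of the set and *Sall1* is a member whose level was lower under C59 late in the series. Capitals mark a match to a motif that was searched for.
*Hand2*, chr8:57320733-57320982, plus strand: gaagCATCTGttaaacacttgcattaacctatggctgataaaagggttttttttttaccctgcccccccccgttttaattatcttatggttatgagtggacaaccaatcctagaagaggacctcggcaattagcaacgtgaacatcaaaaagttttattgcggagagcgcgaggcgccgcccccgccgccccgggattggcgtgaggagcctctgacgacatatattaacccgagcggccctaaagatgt
*Sall1*, chr8:89044163-89044412, minus strand: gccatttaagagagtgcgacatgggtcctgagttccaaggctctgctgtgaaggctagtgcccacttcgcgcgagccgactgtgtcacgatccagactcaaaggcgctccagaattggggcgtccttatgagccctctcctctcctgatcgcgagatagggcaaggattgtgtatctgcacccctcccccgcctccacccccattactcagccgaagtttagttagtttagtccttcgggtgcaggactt
Both strands of the 300 bases were searched for CTTTGAT (TCF/LEF, the factors of canonical WNT signalling), GACCACCC (GLI, the factors of hedgehog signalling) and CATCTG (an E-box, the kind of motif HAND proteins bind). Among the 7 windows of the 5 genes there was a single match, the CATCTG that starts 246 bases before the start of *Hand2*. Over all 32851 windows, 3.73% held CTTTGAT, 0.807% held GACCACCC and 17.2% held CATCTG. No motif holds another within its letters. A match or its absence in this window is a description of these letters.

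The libraries held 18188636 to 38974885 counts. *Axin2*, a direct target of canonical WNT signalling used as the check of the drug, was lower in C59 at 1 h (-0.19 on the log2 scale, adjusted p = 0.0282), 6 h (-1.97, adjusted p = 7.55e-11) and 12 h (-1.45, adjusted p = 1.40e-07), and missed the threshold at 18 h (-0.16) and 24 h (-0.085). Forelimb markers were high, *Tbx5* at 35.8 to 71.3 FPKM and *Prrx1* at 80.9 to 127 FPKM, against 2.15 to 5.55 FPKM for *Tbx4* and 0.081 to 1.96 FPKM for *Pitx1* (hindlimb). C59 18 h replicate 3 stood apart most from the other libraries of its group (SD over 12542 genes of its log2 difference from the other two 0.394, against 0.183 to 0.294 in the other libraries), so the differences of the 9 genes at 18 h, and those of most other genes named at that time, are also given without it. Without that library *Axin2* at 18 h was at -0.16, adjusted p = 0.181. The embryos' sexes were not balanced, since the summed level of 4 Y-linked genes was 0 FPKM in all 3 DMSO libraries at 6 h and 19.8 to 33.2 FPKM in the 3 C59 libraries, and at 1 h it was 0.0469 to 9.03 against 21.2 to 38.2 FPKM. At 6 h treatment and sex therefore cannot be told apart. At 1 h the groups did not overlap in this level either, so the same limit holds for comparisons that use the libraries at 1 h.

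Per transcript length, *Hand2* was the most abundant of the set in every group. In DMSO at 1 h its level was 61.5 ± 4.64 FPKM (mean ± SD, n = 3), followed by *Irx3* at 31.0 ± 2.52 and *Alx4* at 18.8 ± 0.566 FPKM, and these 3 levels did not overlap between libraries. *Pax1* (13.6 ± 1.33) and *Sall1* (13.6 ± 0.778) overlapped each other, *Irx5* stood at 12.1 ± 0.309, *Sall4* at 5.37 ± 0.629, *Alx1* at 3.74 ± 0.396 and *Pax9* last at 0.178 ± 0.0470 FPKM. At 24 h *Hand2* still led at 75.2 ± 1.26 FPKM, *Pax9* had reached 2.97 ± 0.235 FPKM and *Sall4*, at 1.30 ± 0.197 FPKM, had become the lowest. Unless FPKM is named, further levels are in CPM, counts scaled to the TMM-adjusted library size, which compares a gene between libraries but not genes with each other.

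**Figure D1:**
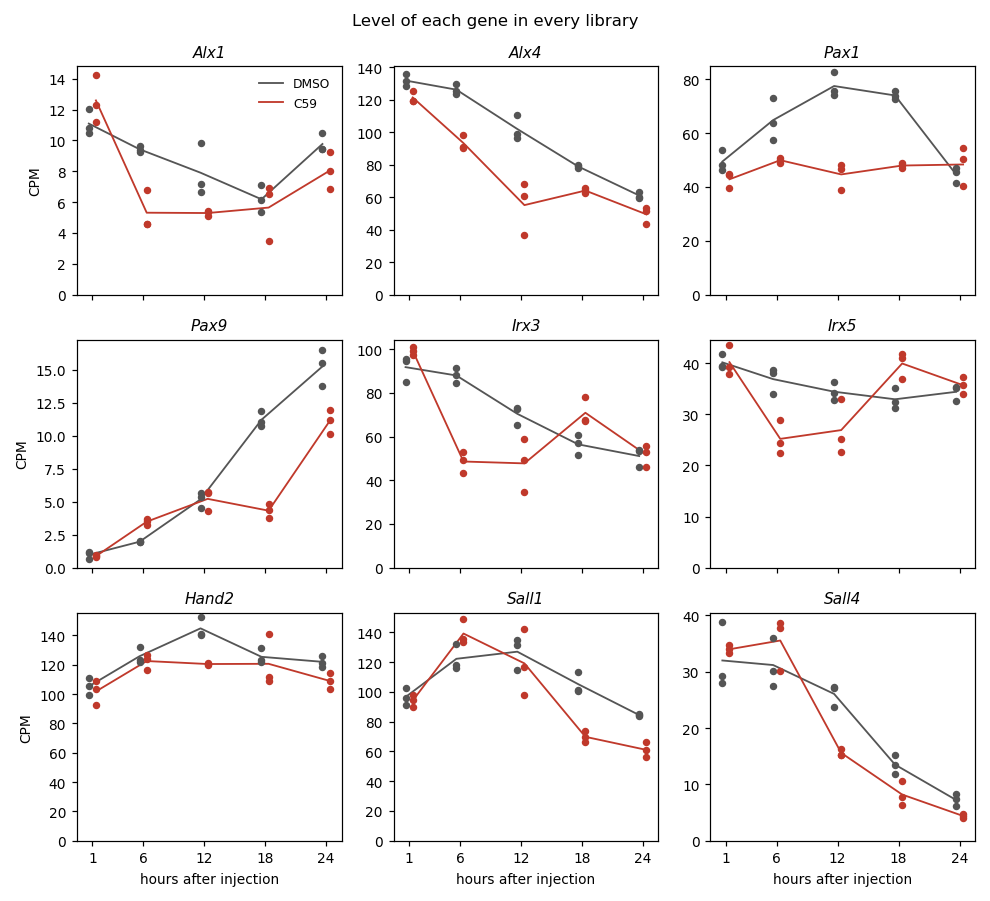
Level in CPM (linear axis from 0) of each of the 9 genes against hours after injection, with points for single libraries (3 per group) and lines through the group means, DMSO in grey and C59 in red. Points are shifted sideways by treatment for visibility. *Pax9* rises over time in both treatments and *Sall4* declines in both, while *Alx4*, *Irx3* and *Pax1* are lower in C59 at 6 and 12 h and *Hand2* stays between 92.9 and 153 CPM.

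The comparison at each time asks which of these regulators differ between C59 and DMSO embryos. The study describes the block as transient, with recovery of WNT signalling at 18 and 24 h, when *Axin2* did not pass here. At 1 h, 0 of 9 genes passed the test (edgeR quasi-likelihood, Benjamini-Hochberg adjusted p below 0.05 over all genes tested), where 1.61% of 13076 tested genes were lower and 1.14% higher, and 3 of 9 had an unadjusted p under 0.05, as did 17.0% of all genes tested. DESeq2 and limma called 0 as well. At 6 h, 7 of 9 passed. *Alx1*, *Alx4*, *Pax1*, *Irx3* and *Irx5* were lower (background 11.4% of 13100 genes) and *Pax9* and *Sall1* higher (background 8.2%), and the median log2 difference of the 9 genes was -0.38 beside 0.0050 for all genes. At 12 h, 7 of 9 were lower (background 25.5% of 13324 genes lower and 22% higher) with a median of -0.56 beside 0.017. At 18 h, 3 of 9 were lower (background 3.62% of 13413 genes lower and 3.46% higher), and at 24 h 4 of 9 were lower (background 3.56% of 13675 genes lower and 2.88% higher), with medians of -0.28 at both times beside 0.0012 and 0.0037. The differences were mostly modest. Under the added limit of a log2 fold change beyond 1, 0, 0, 0, 1 and 0 members were called at 1, 6, 12, 18 and 24 h, against 0.283%, 1.17%, 4.95%, 1.29% and 0.819% of all genes, and no other member's fitted value went beyond 1 at any of these times. The sign was not shared at every time, since *Pax9* and *Sall1* passed as higher at 6 h but as lower at 18 and 24 h.

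**Figure D2:**
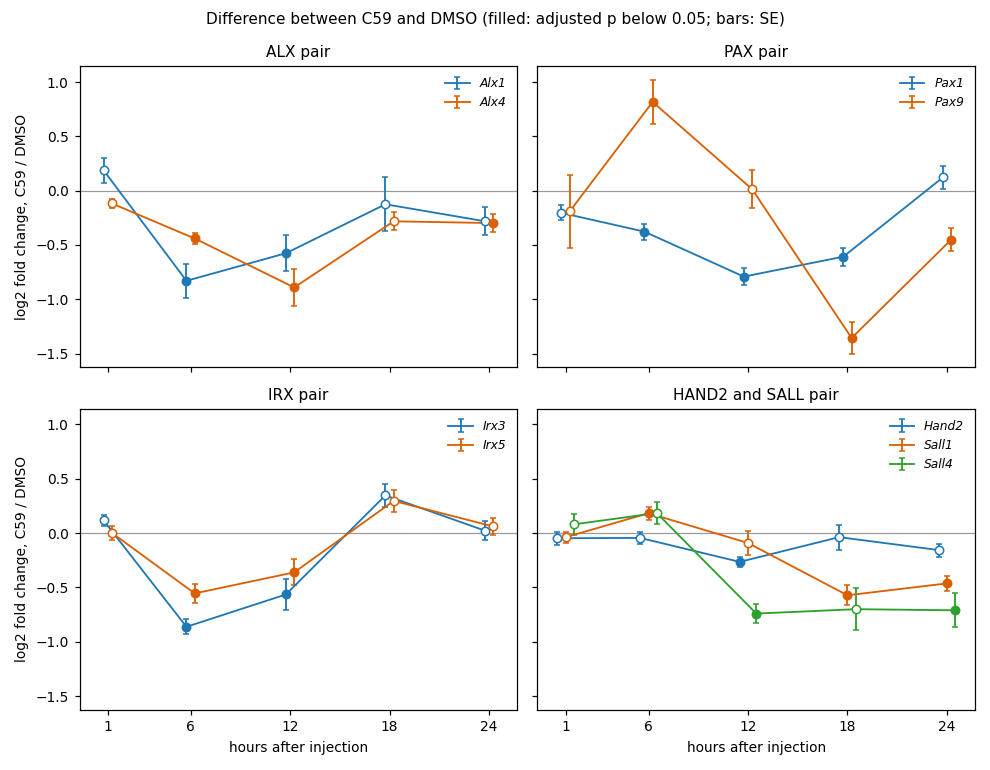
Log2 fold change of C59 over DMSO (vertical axis, error bars SE) against hours after injection for the ALX, PAX and IRX pairs and for *Hand2* with the SALL pair, from 3 libraries per group. Filled points passed the test and open points did not, and *Pax9* goes from 0.82 at 6 h to -1.36 at 18 h while *Irx3* goes from -0.86 to 0.35.

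*Alx4*, the anterior homeodomain factor that restrains *Shh*, was lower in C59 at 6, 12 and 24 h. Its levels at 6 h were 124, 125 and 129.6 CPM in DMSO and 91.2, 90.5 and 98.2 CPM in C59, and at 12 h 111, 99.0 and 96.5 against 67.9, 60.5 and 37.0 CPM. At both times the groups did not overlap, and C59 12 h replicate 3 was the lowest library of the group by a wide margin. The log2 difference was -0.44 ± 0.049 (SE), adjusted p = 4.14e-05 at 6 h, and -0.89 ± 0.17 (SE), adjusted p = 0.00142 at 12 h, where without C59 replicate 3 it was -0.66, adjusted p = 8.67e-05. At 18 h the levels were 78.2, 79.5 and 79.0 against 62.6, 64.2 and 65.6 CPM, and at 24 h 59.7, 63.1 and 60.3 against 53.3, 43.7 and 51.4 CPM. The groups again did not overlap, but the log2 difference at 18 h was -0.28 ± 0.083 (SE), adjusted p = 0.0762, short of the threshold, and -0.30, adjusted p = 0.0118 without C59 18 h replicate 3. The difference at 18 h also passed with DESeq2 (-0.28, adjusted p = 0.0345). At 24 h it was -0.30 ± 0.081 (SE), adjusted p = 0.0475, a call that was lost without DMSO replicate 1, 2 or 3 or C59 replicate 2 or 3 (adjusted p from 0.0628 to 0.154). It was lost as well with the shared spread, the replicate block, upper-quartile factors, all genes of the count table and limma (adjusted p from 0.0512 to 0.145). At 1 h *Alx4* stood at 131, 136 and 129 against 119, 119.6 and 126 CPM, with a log2 difference of -0.12 ± 0.044 (SE), adjusted p = 0.176. The effect at 6 h differed from that at 1 h by -0.32 ± 0.063 (SE), adjusted p = 0.0026, a call lost with the spread shared over all 30 libraries (-0.32, adjusted p = 0.274).

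*Alx1*, its lowly expressed paralog (73 to 324 counts per library), was lower at 6 and 12 h. Its levels at 6 h were 9.26, 9.64 and 9.38 CPM in DMSO and 4.57, 4.56 and 6.80 CPM in C59, and the log2 difference was -0.83 ± 0.16 (SE), adjusted p = 0.00225. That call was lost with limma on log2 FPKM, at -0.57, adjusted p = 0.0588 with a pseudocount of 1 and -0.79, adjusted p = 0.0541 with 0.1. At 12 h they were 6.69, 9.85 and 7.18 against 5.39, 5.38 and 5.10 CPM, with a log2 difference of -0.58 ± 0.17 (SE), adjusted p = 0.0151, and -0.40, adjusted p = 0.0515 without DMSO 12 h replicate 2, the highest of its group. The groups did not overlap at 6 h or 12 h. At 18 h the groups overlapped, at 6.11, 7.09 and 5.35 against 6.55, 6.89 and 3.50 CPM, and C59 18 h replicate 3 was the lowest library (log2 difference -0.13, and 0.12, adjusted p = 0.649 without it). At 24 h the levels were 9.42, 10.46 and 9.43 against 6.87, 7.99 and 9.25 CPM, with a log2 difference of -0.28 ± 0.13 (SE), adjusted p = 0.226. The levels at 1 h were 12.0, 10.49 and 10.8 against 14.3, 12.3 and 11.2 CPM, and the effect changed by -1.02 ± 0.20 (SE), adjusted p = 0.00216 from 1 h to 6 h.

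*Pax9*, the gene of the set with the fewest counts (13 to 423 per library), changed sign between times. At 6 h its levels were 2.03, 1.93 and 1.95 CPM in DMSO and 3.54, 3.24 and 3.69 CPM in C59, with every C59 library above every DMSO library. The log2 difference was 0.82 ± 0.20 (SE), adjusted p = 0.0114, or 1.76-fold higher. At 12 h the groups overlapped, at 4.49, 5.40 and 5.66 against 5.72, 5.67 and 4.28 CPM, and the log2 difference was 0.013 ± 0.17 (SE), adjusted p = 0.956, with a 95% interval of -0.37 to 0.40. At 18 h every C59 library lay below every DMSO library, at 3.79, 4.39 and 4.79 against 11.9, 11.0 and 10.7 CPM. The log2 difference of -1.36 ± 0.14 (SE), adjusted p = 0.00194 was the only one of the set beyond 1, and it was -1.44, adjusted p = 6.15e-04 without C59 18 h replicate 3. At 24 h the levels were 15.5, 16.5 and 13.7 against 10.1, 12.0 and 11.2 CPM, again without overlap, with a log2 difference of -0.45 ± 0.11 (SE), adjusted p = 0.029. That call was lost without DMSO 24 h replicate 1 or 2 or C59 24 h replicate 1 or 3 (adjusted p from 0.0513 to 0.122) and with limma (adjusted p from 0.0902 to 0.0935). At 1 h *Pax9* was near 1 CPM, at 1.12, 0.637 and 1.17 against 0.792, 0.873 and 0.947 CPM, and the groups overlapped. The effect itself changed between neighbouring times by -0.81 ± 0.25 (SE), adjusted p = 0.0315 from 6 h to 12 h, by -1.36 ± 0.22 (SE), adjusted p = 0.00217 from 12 h to 18 h and by 0.89 ± 0.17 (SE), adjusted p = 0.00771 from 18 h to 24 h.

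*Pax1*, the other paired-box gene, was lower in C59 at 6, 12 and 18 h and not at 24 h. In DMSO its mean was highest at 12 h, with 53.7, 46.5 and 48.2 CPM at 1 h, 74.3, 75.6 and 82.6 CPM at 12 h and 41.4, 47.1 and 45.5 CPM at 24 h, while C59 libraries stayed between 39.0 and 54.4 CPM throughout. At 6 h the levels were 57.5, 63.9 and 73.1 against 49.9, 50.9 and 49.0 CPM and at 12 h C59 stood at 39.0, 48.2 and 46.8 CPM. At 18 h they were 72.5, 73.9 and 75.6 against 47.1, 48.8 and 48.0 CPM, with narrow groups that did not overlap. The log2 difference was -0.38 ± 0.074 (SE), adjusted p = 0.00301 at 6 h, -0.79 ± 0.081 (SE), adjusted p = 2.63e-05 at 12 h and -0.61 ± 0.084 (SE), adjusted p = 0.00539 at 18 h. At 24 h C59 stood at 54.4, 50.3 and 40.4 CPM, overlapping DMSO, with a log2 difference of 0.12 ± 0.10 (SE), adjusted p = 0.532. The effect changed by -0.42 ± 0.12 (SE), adjusted p = 0.0234 from 6 h to 12 h and by 0.72 ± 0.14 (SE), adjusted p = 0.00856 from 18 h to 24 h. Without C59 18 h replicate 3 the difference of *Pax1* at 18 h was -0.61, adjusted p = 7.00e-04. At 6 h *Pax1* was lower and *Pax9* higher. Markers of somite and trunk tissue, which also uses both PAX genes, were higher in C59 at 6 h for 2 of 4 tested markers (background 8.2%). The summed level of all 6 was then 59.2 to 61.1 FPKM in C59 against 50.1 to 53.0 in DMSO. At 12 h, 2 of 5 tested markers were higher and 1 lower (background 22% and 25.5%). The sums at 12 h overlapped, at 52.1 to 74.0 against 51.3 to 56.8 FPKM. At 18 h, when both PAX genes were lower, 1 of 5 tested markers was higher (background 3.46%), and 2 of 5 without C59 replicate 3. The sum was 71.4 to 76.7 against 58.5 to 62.4 FPKM, with the same C59 range without replicate 3. Their part in the result was not tested.

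*Irx3* and *Irx5*, the neighbouring Iroquois genes, were both lower in C59 at 6 and 12 h and lay above DMSO at 18 h. At 6 h *Irx3* stood at 91.2, 84.6 and 88.1 CPM in DMSO and 43.5, 49.1 and 53.2 CPM in C59, and *Irx5* at 38.2, 34.0 and 38.6 against 22.5, 24.3 and 28.8 CPM. No C59 library reached a DMSO library for either gene. The log2 difference was -0.86 ± 0.069 (SE), adjusted p = 1.98e-06 for *Irx3*. For *Irx5* it was -0.56 ± 0.089 (SE), adjusted p = 6.75e-04. At 12 h *Irx3* stood at 72.8, 65.5 and 73.0 against 59.04, 49.4 and 34.8 CPM and *Irx5* at 36.3, 32.8 and 34.2 against 33.0, 25.2 and 22.6 CPM, where C59 replicate 1 of *Irx5* lay within the DMSO range and C59 replicate 3 was the lowest for both genes. The log2 difference of *Irx3* was -0.56 ± 0.15 (SE), adjusted p = 0.00911, and -0.37, adjusted p = 0.00601 without C59 12 h replicate 3, and its call was lost with limma at a pseudocount of 1 (-0.51, adjusted p = 0.0532). That of *Irx5* was -0.36 ± 0.12 (SE), adjusted p = 0.0296, and the call was lost without DMSO 12 h replicate 1 or 3 or C59 12 h replicate 2 or 3 (adjusted p from 0.071 to 0.105), with upper-quartile factors (adjusted p = 0.0854) and with limma (adjusted p from 0.145 to 0.162).

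At 18 h the order of the treatments was turned around for both Iroquois genes. *Irx3* stood at 60.6, 57.3 and 51.5 CPM in DMSO and 78.0, 67.7 and 67.0 CPM in C59, and *Irx5* at 35.1, 32.5 and 31.2 against 41.9, 41.0 and 37.0 CPM, with no overlap between groups. The log2 difference missed the threshold, at 0.35 ± 0.11 (SE), adjusted p = 0.0856 for *Irx3* and 0.30 ± 0.10 (SE), adjusted p = 0.113 for *Irx5*. Without C59 18 h replicate 3 both passed, at 0.38, adjusted p = 0.0252 for *Irx3* and 0.35, adjusted p = 0.019 for *Irx5*. Both passed as well with the shared spread (adjusted p = 0.0345 for *Irx3* and 0.0364 for *Irx5*), and *Irx3* with DESeq2 (adjusted p = 0.0454). The change of the effect from 12 h to 18 h passed for both, at 0.91 ± 0.21 (SE), adjusted p = 0.0137 for *Irx3* and 0.66 ± 0.17 (SE), adjusted p = 0.0264 for *Irx5*, and the call of *Irx5* was lost without DMSO 12 h replicate 1 or 3, C59 12 h replicate 2 or 3 or DMSO 18 h replicate 2 or 3 (adjusted p from 0.0597 to 0.0733). At 24 h both genes overlapped between treatments, with *Irx3* at 53.2, 53.8 and 46.3 against 55.8, 52.8 and 46.2 CPM and *Irx5* at 35.4, 32.7 and 35.2 against 37.4, 35.8 and 33.9 CPM. The log2 difference at 24 h lay within -0.17 to 0.21 for *Irx3* and -0.10 to 0.22 for *Irx5* (95% interval). At 1 h *Irx3* stood at 94.8, 95.7 and 84.9 against 97.6, 101 and 99.3 CPM and *Irx5* at 39.5, 41.8 and 39.2 against 37.8, 43.6 and 39.2 CPM, and neither passed the test. From 1 h to 6 h the effect changed by -0.98 ± 0.090 (SE), adjusted p = 1.09e-06 for *Irx3* and by -0.55 ± 0.12 (SE), adjusted p = 0.00423 for *Irx5*. Neural tube markers, from a tissue that also uses these genes, were near 0, with a summed level of 0.115 to 0.864 FPKM over the 4 markers in all 30 libraries, and *Pax6* listed at 0 in 21 of them.

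*Hand2*, the posterior determinant and activator of *Shh*, passed at 12 h alone, and its largest log2 difference was smaller in size than the largest of each other member. At 6 h its levels were 132, 124 and 122 CPM in DMSO and 124, 127 and 117 CPM in C59. The groups overlapped and the log2 difference was -0.044 ± 0.052 (SE), adjusted p = 0.597, with a 95% interval of -0.16 to 0.066. At 12 h the levels were 141, 141 and 153 against 120.0, 121 and 121 CPM, without overlap, and *Hand2* fell to 83.2% of DMSO, with a log2 difference of -0.26 ± 0.048 (SE), adjusted p = 0.00109. At 18 h the levels were 131, 123 and 122 against 112, 109 and 141 CPM, where C59 replicate 3 was the highest library, and the log2 difference was -0.037 ± 0.12 (SE), adjusted p = 0.876, and -0.17, adjusted p = 0.102 without that library. At 24 h they were 121, 126 and 119 against 114, 104 and 109 CPM, with a log2 difference of -0.16 ± 0.060 (SE), adjusted p = 0.145, and -0.20, adjusted p = 0.0329 without C59 24 h replicate 1. At 1 h they were 106, 111 and 99.1 against 92.9, 109 and 104 CPM. The effect changed by -0.22 ± 0.068 (SE), adjusted p = 0.0316 from 6 h to 12 h, a call lost when any of 9 of the 12 libraries was left out (all except DMSO 6 h replicate 1, C59 6 h replicate 3 and DMSO 12 h replicate 2; adjusted p from 0.0666 to 0.139), with no filter on low counts (adjusted p = 0.0559) and with the shared spread (adjusted p = 0.169).

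*Shh*, which HAND2 activates, was measured beside it. Its levels at 12 h were 11.6, 10.7 and 14.2 CPM in DMSO and 0.218, 0.0420 and 0.276 CPM in C59, where the 3 C59 libraries held 4, 1 and 6 counts. The log2 difference of *Shh* was -1.47 ± 0.11 (SE), adjusted p = 1.33e-06 at 6 h, -6.09 ± 0.32 (SE), adjusted p = 5.54e-07 at 12 h and -3.32 ± 0.25 (SE), adjusted p = 6.23e-04 at 18 h, where it was -3.23, adjusted p = 4.18e-04 without C59 18 h replicate 3. At 24 h *Shh* was low in both treatments, at 0.772, 1.41 and 0.515 against 0.750, 1.43 and 0.339 CPM. *Gli3*, the anterior antagonist of *Hand2*, did not pass at any time, with log2 differences of 0.15, 0.022, -0.088, 0.31 and 0.13 at 1, 6, 12, 18 and 24 h. Without C59 18 h replicate 3 the difference of *Gli3* at 18 h was 0.35, adjusted p = 0.0952.

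*Sall1* lay slightly above DMSO at 6 h, and it was lower than DMSO at 18 and 24 h. At 6 h its levels were 118, 133 and 116 CPM in DMSO and 149, 133 and 136 CPM in C59, with a log2 difference of 0.18 ± 0.059 (SE), adjusted p = 0.0426, a call that was lost without DMSO 6 h replicate 1 or 3 or any C59 replicate (adjusted p from 0.0531 to 0.196). It was lost as well with the shared spread, the replicate block, all genes of the count table and limma (adjusted p from 0.0537 to 0.194). At 12 h the groups overlapped, at 135, 115 and 131 against 98.2, 117 and 142 CPM. At 18 h the levels were 102, 101 and 113 against 66.6, 73.6 and 69.4 CPM and at 24 h 84.9, 84.7 and 83.8 against 56.0, 60.7 and 66.5 CPM. At both late times every C59 library was below every DMSO library. The log2 difference was -0.57 ± 0.092 (SE), adjusted p = 0.00955 at 18 h, and -0.51, adjusted p = 0.0763 without DMSO 18 h replicate 3, and -0.57, adjusted p = 0.00265 without C59 18 h replicate 3. At 24 h it was -0.46 ± 0.068 (SE), adjusted p = 0.00222. At 1 h the levels were 96.2, 91.2 and 102 against 90.2, 98.0 and 94.3 CPM, and the effect at 24 h differed from that at 1 h by -0.42 ± 0.087 (SE), adjusted p = 0.0115, a call lost with the shared spread (-0.43, adjusted p = 0.0865).

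*Sall4*, the other zinc finger gene of the pair, was lower in C59 at 12 and 24 h. Its levels at 12 h were 27.3, 23.7 and 27.1 CPM in DMSO and 15.1, 15.3 and 16.3 CPM in C59, a log2 difference of -0.74 ± 0.087 (SE), adjusted p = 6.34e-05. At 18 h they were 11.9, 13.4 and 15.2 against 10.6, 7.69 and 6.33 CPM and at 24 h 7.36, 8.24 and 6.14 against 4.83, 4.38 and 3.97 CPM. No C59 library reached a DMSO library at these 3 times. The log2 difference was -0.70 ± 0.19 (SE), adjusted p = 0.0605 at 18 h, short of the threshold, and -0.93, adjusted p = 0.0225 without C59 18 h replicate 1, and -0.55, adjusted p = 0.0541 without C59 18 h replicate 3. The difference at 18 h passed with DESeq2 (adjusted p = 0.0121), the shared spread (adjusted p = 0.00108) and no filter on low counts (adjusted p = 0.0458). At 24 h it was -0.71 ± 0.16 (SE), adjusted p = 0.0209, a call that was lost without DMSO 24 h replicate 1 or 2 or C59 24 h replicate 2 (adjusted p from 0.0593 to 0.094) and with limma (adjusted p from 0.0858 to 0.113). At 6 h the groups overlapped, at 30.2, 35.9 and 27.4 against 37.8, 30.1 and 38.7 CPM, with a log2 difference of 0.18 ± 0.10 (SE), adjusted p = 0.236, and 0.29, adjusted p = 0.0417 without DMSO 6 h replicate 2. At 1 h they overlapped too, at 28.0, 29.2 and 38.7 against 33.9, 33.3 and 34.7 CPM. The effect changed by -0.93 ± 0.15 (SE), adjusted p = 5.38e-04 from 6 h to 12 h, and it differed between 1 h and 24 h by -0.78 ± 0.19 (SE), adjusted p = 0.0266, a call lost with the shared spread (-0.80, adjusted p = 0.0566).

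Over the set, the change of the C59 effect between times was tested on 12 libraries each. From 1 h to 6 h it passed for 4 of 9 genes (background 13% of 13397 genes), *Alx1*, *Alx4*, *Irx3* and *Irx5*. From 6 h to 12 h it passed for 4 (background 18.1% of 13565), *Pax1*, *Pax9*, *Hand2* and *Sall4*. From 12 h to 18 h it passed for 3 (background 8.49% of 13694), *Pax9*, *Irx3* and *Irx5*, and from 18 h to 24 h for 2 (background 6.96% of 13794), *Pax1* and *Pax9*. Between 1 h and 24 h it passed for 2 (background 4.18% of 13872), *Sall1* and *Sall4*. Neighbouring contrasts share the libraries of the time between them. Without C59 18 h replicate 3 the changes that passed with it still did, from 12 h to 18 h at -1.45, adjusted p = 9.23e-04 for *Pax9*, 0.95, adjusted p = 0.00792 for *Irx3* and 0.71, adjusted p = 0.0104 for *Irx5*, and from 18 h to 24 h at 0.72, adjusted p = 0.00396 for *Pax1* and 0.98, adjusted p = 0.00249 for *Pax9*. The call from 6 h to 12 h was lost for *Pax1* without DMSO 6 h replicate 1, C59 6 h replicate 2 or 3, DMSO 12 h replicate 3 or C59 12 h replicate 1 (adjusted p from 0.0502 to 0.0766). It was lost for *Pax9* without any DMSO 6 h replicate, C59 6 h replicate 1 or 3, DMSO 12 h replicate 2 or 3 or C59 12 h replicate 3 (adjusted p from 0.0544 to 0.0856). The call of *Sall4* between 1 h and 24 h was lost without replicate 1 or 2 of DMSO or C59 at 1 h, DMSO 24 h replicate 1 or 2 or C59 24 h replicate 2 (adjusted p from 0.0507 to 0.0764). Calls were gained when 1 library was left out for *Pax9* (1.22, adjusted p = 0.0311 without DMSO 1 h replicate 2) and *Sall1* (0.29, adjusted p = 0.0188 without DMSO 6 h replicate 2) from 1 h to 6 h, and for *Alx4* (-0.61, adjusted p = 0.0216 without C59 12 h replicate 1), *Irx3* (0.49, adjusted p = 0.00911) and *Sall1* (-0.41, adjusted p = 0.0201), both without C59 12 h replicate 3, from 6 h to 12 h. They were also gained from 12 h to 18 h for *Alx4* (0.79, adjusted p = 0.0381) and *Sall1* (-0.60, adjusted p = 0.0251), both without C59 12 h replicate 1, and between 1 h and 24 h for *Pax1* (0.45, adjusted p = 0.0221 without C59 24 h replicate 3).

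**Figure D3:**
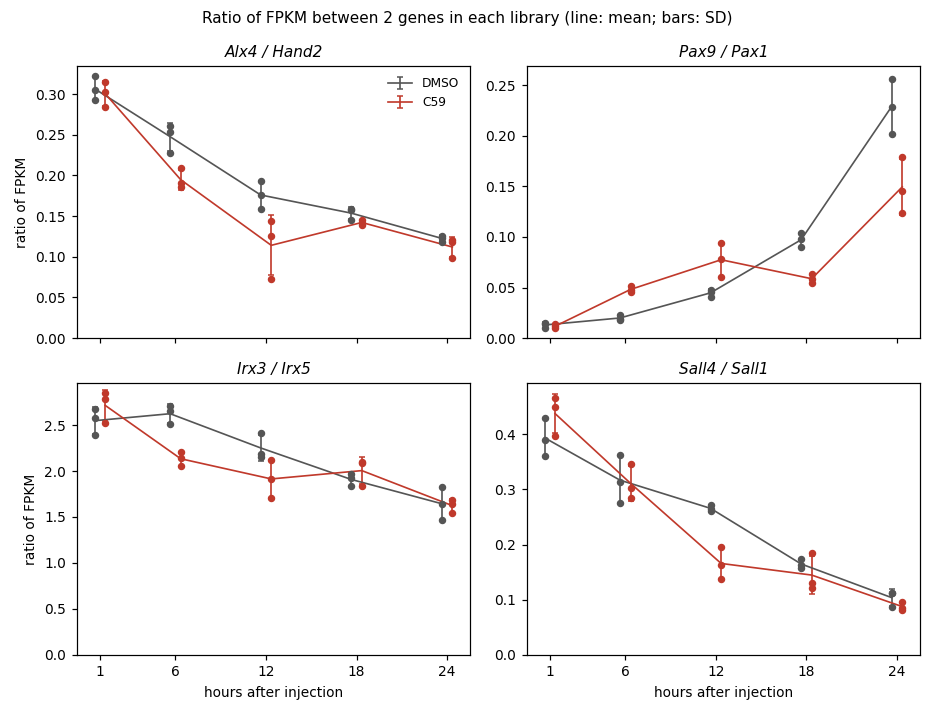
Ratio of FPKM between paired genes in each library (linear axis from 0) against hours after injection, with points for the 3 libraries of a group, lines through means and SD bars, DMSO grey and C59 red. The *Alx4* to *Hand2* ratio is lower at 24 h than at 1 h in both treatments and lower in C59 at 6 and 12 h, and the *Pax9* to *Pax1* ratio lies above DMSO at 6 and 12 h and below it at 18 and 24 h.

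The balance of anterior *Alx4* to posterior *Hand2*, as a ratio of FPKM within a library, went from 0.307 ± 0.0144 in DMSO at 1 h to 0.123 ± 0.00370 at 24 h (mean ± SD, n = 3). In C59 it was 0.195 ± 0.0122 against 0.248 ± 0.0174 in DMSO at 6 h, and 0.114 ± 0.0369 against 0.176 ± 0.0169 at 12 h, with no overlap between libraries at either time. At 24 h the values were 0.112 ± 0.0120 against 0.123 ± 0.00370 and overlapped. The ratio of *Irx3* to *Irx5* went from 2.55 ± 0.145 at 1 h to 1.64 ± 0.179 at 24 h in DMSO and from 2.72 ± 0.173 to 1.62 ± 0.0762 in C59. The ratio of *Sall4* to *Sall1* went from 0.394 ± 0.0344 to 0.104 ± 0.0150 in DMSO and from 0.438 ± 0.0358 to 0.0874 ± 0.00754 in C59. The ratios are given as a description, with no test.

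In DMSO, 7 of 9 genes differed between 24 h and 1 h, where 59.3% of all genes did, so the count is near the background. Of the 7, 5 were lower (background 29.2% of 13580 genes) and 2 were higher (background 30.2%). *Pax9* rose by a log2 change of 3.93 ± 0.18 (SE), adjusted p = 1.90e-10, 15.2-fold, from 1.12, 0.637 and 1.17 to 15.5, 16.5 and 13.7 CPM. *Sall4* fell to 22.6%, with a log2 change of -2.15 ± 0.13 (SE), adjusted p = 6.81e-09, and *Alx4* to 46.3%, with -1.11 ± 0.045 (SE), adjusted p = 6.43e-11. *Irx3* (-0.84 ± 0.066 (SE), adjusted p = 6.72e-08) and its neighbour *Irx5* (-0.22 ± 0.063 (SE), adjusted p = 0.00736) also fell. *Sall1* fell by little (-0.20 ± 0.049 (SE), adjusted p = 0.00318) and *Hand2* rose by little (0.21 ± 0.049 (SE), adjusted p = 0.00166). With the spread shared over all 30 libraries the calls of *Irx5* (-0.22, adjusted p = 0.0595) and *Sall1* (-0.19, adjusted p = 0.0793) were lost. *Alx1* and *Pax1* did not pass, and *Pax1* passed without DMSO 1 h replicate 2 (-0.19, adjusted p = 0.0496).

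In C59, 6 of 9 genes differed between 24 h and 1 h, where 54.1% of all genes did, again near the background, with 5 lower (background 25.7% of 13510 genes) and 1 higher (background 28.4%). *Pax9* rose by 3.69 ± 0.18 (SE), adjusted p = 7.55e-10, *Sall4* fell, with a log2 change of -2.93 ± 0.11 (SE), adjusted p = 3.10e-11, to 13.1% of its level at 1 h, and *Alx4* fell to 41.2%, with -1.28 ± 0.076 (SE), adjusted p = 5.30e-09. *Irx3* (-0.93 ± 0.076 (SE), adjusted p = 1.77e-07), *Sall1* (-0.61 ± 0.071 (SE), adjusted p = 6.39e-06) and *Alx1* (-0.64 ± 0.14 (SE), adjusted p = 0.00127) also fell. *Irx5*, *Hand2* and *Pax1* did not pass, and *Pax1* passed without C59 24 h replicate 3 (0.31, adjusted p = 0.00858). The difference between the treatments in this change is the contrast between 1 h and 24 h given above, in which *Sall1* and *Sall4* passed and the other 7 did not.

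**Figure D4:**
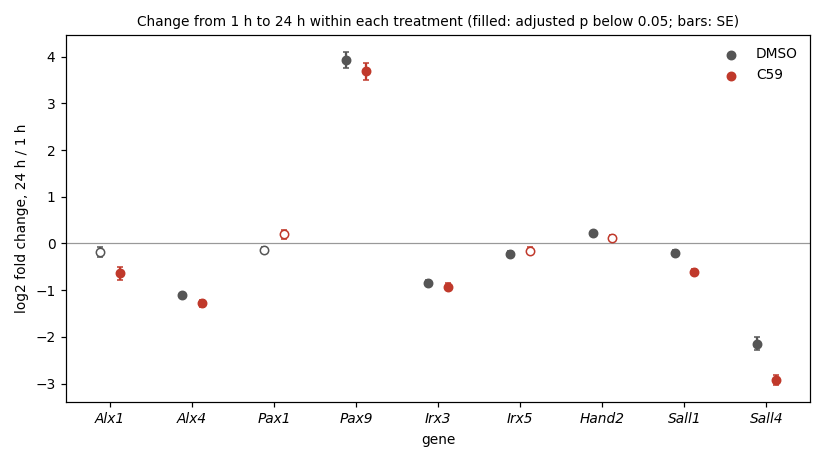
Log2 fold change from 1 h to 24 h (vertical axis, error bars SE) for each of the 9 genes within DMSO (grey) and within C59 (red), from 3 libraries per group. Filled points passed the test, and *Pax9* stands near 4 in both treatments, at 3.93 and 3.69, with *Sall4* at -2.15 in DMSO and -2.93 in C59.

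The paralogs of the set were read from a list of 7 genes. *Irx2* and *Irx4* were higher at 12 h, unlike *Irx3* and *Irx5*, at 0.91 ± 0.14 (SE), adjusted p = 3.59e-04 for *Irx2* and 0.67 ± 0.20 (SE), adjusted p = 0.0162 for *Irx4*, and at 18 h, where *Irx4* reached 0.99 ± 0.14 (SE), adjusted p = 0.00528. Without C59 18 h replicate 3, *Irx4* was at 0.95, adjusted p = 0.00324 and *Irx2* at 0.89, adjusted p = 0.00341. *Hand1*, the low paralog of *Hand2*, was lower at 12 h (-1.51 ± 0.35 (SE), adjusted p = 0.0052). *Sall3* was higher at 6 h (0.38 ± 0.074 (SE), adjusted p = 0.00251) and lower at 12 h (-0.49 ± 0.11 (SE), adjusted p = 0.00471) and 24 h (-0.35 ± 0.096 (SE), adjusted p = 0.0476). At 18 h *Sall3* missed the threshold (-0.60, adjusted p = 0.0558) and passed as lower without C59 18 h replicate 3 (-0.70, adjusted p = 0.0185). At 12 h, 3 of 7 were higher and 2 lower (background 22% higher and 25.5% lower), with a median of 0.67. At 1 h 0 of 6 tested passed.

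Of 6 other anterior regulators, *Msx1* and *Msx2* were lower at 6, 12 and 18 h, *Msx1* with -3.01 ± 0.11 (SE), adjusted p = 1.20e-07 at 12 h, while *Gata4* and *Gata6* were higher at 1 h (1.89 ± 0.39 (SE), adjusted p = 0.0176 for *Gata4*) and did not pass later. *Gata4* was low, at 0.105 to 2.95 FPKM over all libraries with a median of 0.352 FPKM. Of 13 posterior genes, 6 were lower at 6 h, 9 of 12 tested at 12 h, 7 at 18 h and 2 of 12 tested at 24 h. The background of lower genes was 11.4%, 25.5%, 3.62% and 3.56% in that order. Their medians were -0.19, -0.64, -0.42 and -0.035 beside 0.0050, 0.017, 0.0012 and 0.0037 for all genes. The largest differences were those of *Fgf4* at 6 h (-3.41 ± 0.52 (SE), adjusted p = 4.29e-04) and *Shh* at 12 and 18 h. *Fgf4* was near 0, at 0 to 1.26 FPKM over all libraries with a median of 0.153 FPKM. *Hoxd13* was among the posterior genes lower at 24 h (-0.52 ± 0.075 (SE), adjusted p = 0.00214). Of 10 hedgehog components and targets, 4 were higher and 1 lower at 6 h (background 8.2% higher and 11.4% lower). At 18 h, 2 were higher and 4 lower (background 3.46% higher and 3.62% lower). *Gli1*, a target of SHH, was higher at 6 h (0.23 ± 0.064 (SE), adjusted p = 0.0204) and lower at 18 h (-0.87 ± 0.16 (SE), adjusted p = 0.0155) and 24 h (-0.32 ± 0.069 (SE), adjusted p = 0.0178), and the receptor gene *Ptch1* was higher at 6 h (0.36 ± 0.057 (SE), adjusted p = 5.51e-04) and lower at 18 h (-0.52 ± 0.12 (SE), adjusted p = 0.0343). *Hhip* had the largest difference in this list, -1.16 ± 0.22 (SE), adjusted p = 0.0171 at 18 h, and was low, at 0.184 to 0.951 FPKM over all libraries. Without C59 18 h replicate 3 the differences at 18 h were -1.02, adjusted p = 0.00279 for *Gli1*, -0.47, adjusted p = 0.0253 for *Ptch1*, -1.01, adjusted p = 0.0144 for *Hhip*, -1.82, adjusted p = 1.22e-04 for *Msx1* and -0.52, adjusted p = 0.00368 for *Msx2*, and 7 of 13 posterior genes were lower and 1 higher. Among the members, both *Pax9* and *Sall1* passed as higher at 6 h and as lower at 18 h, and the call of *Sall1* at 6 h was lost in the settings given above.

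**Figure D5:**
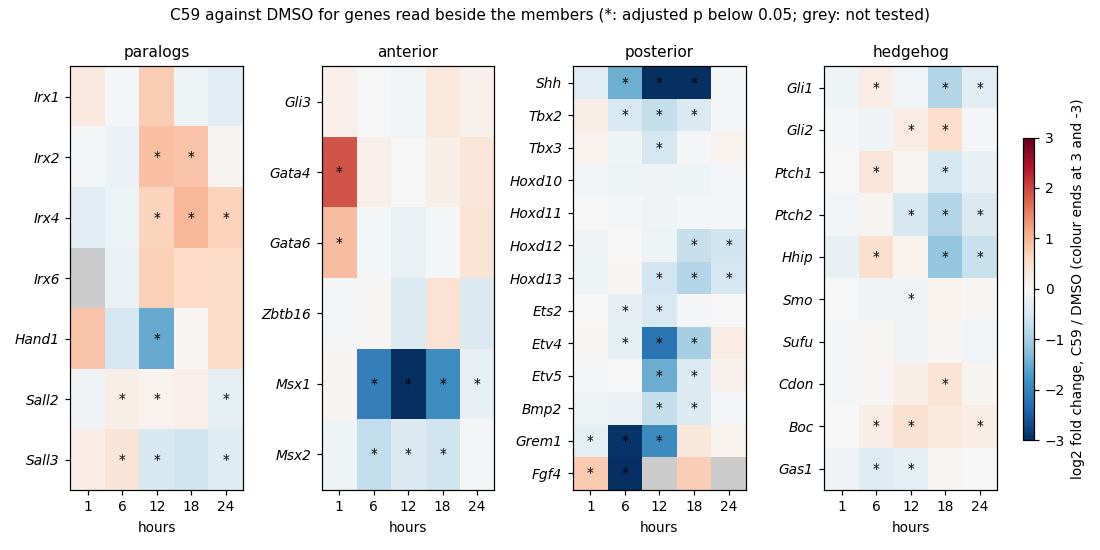
Log2 fold change of C59 over DMSO (colour, ending at 3 and -3) for the genes of the paralog, anterior, posterior and hedgehog lists (rows) at 1, 6, 12, 18 and 24 h (columns), with stars for genes that passed the test and grey for genes not tested. *Fgf4* at 6 h and *Msx1* at 12 h go beyond the colour range, as *Shh* does at 12 h (-6.09) and 18 h (-3.32), and *Gli1*, *Ptch1* and *Hhip* turn from higher at 6 h to lower at 18 h.

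Markers of several cell types were read at the same times. Of all genes tested at 12 h, 25.5% were lower and 22% higher. At 6 h, 6 of 7 forelimb mesenchyme markers were already lower (background 11.4%), with a summed level of 356 to 381 FPKM in C59 against 573 to 606 in DMSO. At 12 h, 6 of 7 were lower (319.9 to 330.3 against 534 to 566 FPKM), although *Tbx5* was higher (0.21 ± 0.076 (SE), adjusted p = 0.0423). At 18 h, 4 of 7 were lower (background 3.62%), at 408 to 443 against 492 to 525 FPKM. The count and the C59 range at 18 h were the same without C59 18 h replicate 3. Of 7 ectoderm and apical ridge markers, 5 were higher and 2 lower at 12 h (sum 129 to 172 against 96.0 to 107 FPKM). This sum pools surface ectoderm genes with the apical ridge genes *Fgf8* and *Sp8*. At 18 h, 3 of the 7 were higher and 1 lower, which was *Fgf8* (-0.71, adjusted p = 0.0432, and -0.69, adjusted p = 0.0393 without C59 18 h replicate 3). *Sp8* missed the threshold at 18 h (-0.52, adjusted p = 0.0544) and passed as lower without that library (-0.42, adjusted p = 0.0395). At 12 h, 3 of 4 endothelial markers were higher (58.3 to 65.5 against 43.7 to 47.3 FPKM) and 3 of 3 macrophage markers were higher (8.21 to 8.85 against 3.94 to 5.14 FPKM). Muscle progenitor markers were lower for 4 of 5 at 12, 18 and 24 h (background 25.5%, 3.62% and 3.56% in that order). The remaining marker was higher at 12 h. At 6 h, 1 of 5 was higher and 1 lower (background 8.2% higher and 11.4% lower). Their sum at 6 h was above DMSO, at 38.7 to 39.9 against 28.3 to 30.7 FPKM. Their sum at 18 h was 21.2 to 27.3 against 38.8 to 42.5 FPKM, and 21.2 to 26.0 FPKM without C59 replicate 3. Erythroid markers were higher for 1 of 4 at 12 h, near the background of 22%, and their sums overlapped (4345 to 6530.5 against 3294 to 4760.2 FPKM). Schwann and neural crest markers were higher for 1 of 2 tested at 12 h (3.65 to 7.46 against 2.14 to 3.20 FPKM). Of the hindlimb markers, *Tbx4* was higher at 6 h (0.38 ± 0.11 (SE), adjusted p = 0.0316). None of these markers was at 0 in a whole group. Their part in the differences of the 9 genes was not tested.

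The nearest genes in the genome were read beside the members. *Cd82* and *Accs*, on either side of *Alx4*, were higher at 12 h (1.03 and 0.48 on the log2 scale), when *Alx4* was lower. At 24 h *Cd82* was lower (-0.47, adjusted p = 0.0215), as *Alx4* was. *Fto*, 130 kb from *Irx3*, did not pass at any time (-0.045 to 0.074). *Atp9a*, 5.92 kb from *Sall4*, was higher at 12, 18 and 24 h (0.76, 0.76 and 0.31, and at 18 h 0.56, adjusted p = 0.00341 without C59 18 h replicate 3), when *Sall4* was lower or below DMSO. *Xrn2*, beside *Pax1*, was lower at 6 h (-0.23) and 12 h (-0.41), and so was *Prps1l3*, beside *Pax9* (-0.16 and -0.38). *Tox3*, beside *Sall1*, and *Zfp64*, beside *Sall4*, were higher at 12 h (0.39 and 0.23). Genes whose span overlaps a member can share its reads in the FPKM values, which were made without strand. Whether they affect the counts is open, since the strand setting of the counts is not given. *Ext2* overlaps *Alx4* on the opposite strand over 20312 bases, at a mean of 25.6 FPKM. *Hand2os1* overlaps *Hand2* over 3251 bases, at 16.8, 15.4 and 15.8 FPKM in DMSO and 14.0, 14.4 and 17.9 FPKM in C59 at 12 h, and 10.7, 12.5 and 14.6 against 10.1, 9.27 and 8.57 FPKM at 6 h. At 18 h *Hand2os1* stood at 16.9, 16.2 and 15.7 against 11.8, 11.4 and 12.6 FPKM, without overlap. The level of *Hand2* is therefore uncertain by what it shares with *Hand2os1*. The other overlapping genes, among them *Irx3os* and *Slc25a21*, had mean levels from 0.00797 to 0.613 FPKM.

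Across the 10 group means of log2 CPM, 12533 other genes were ranked by their likeness to each member (Pearson r, as a description over groups that share a time axis). *Sall4* was most like its paralog *Sall3* (r = 0.994), then *Med24* (0.987) and *Ctnna1* (0.984). *Alx4* was most like *Lix1* (0.989), *Ttpa* (0.984) and *Zmym1* (0.983), and *Pax9* most like *Six2* (0.984), *Pitx3* (0.982) and *Pax7* (0.982). *Sall1* was most like *Pmaip1* (0.976), *Cep290* (0.961) and *Ptch1* (0.955). *Irx3* was closest to *Chchd4* (0.957), *Ak4* (0.954) and *Vav2* (0.954), and *Irx5* to *Eef1akmt4* (0.960), *Pycrl* (0.955) and *Znrf3* (0.955). *Alx1* was closest to *Eif2ak1* (0.948), *Gorasp2* (0.945) and *Stx3* (0.939), and *Pax1* to *Myb* (0.955), *Mnx1* (0.933) and *Bcl7a* (0.857). *Hand2* had the weakest likeness, led by *Adamtsl2* (0.885), *Calb2* (0.871) and *Inava* (0.866). Within the set the highest values were between *Alx4* and *Sall4* (0.875), *Alx4* and *Irx3* (0.801) and *Sall1* and *Sall4* (0.801), and the lowest between *Pax9* and *Irx3* (-0.812).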

How the data were processed

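PolyA RNA-seq was performed on forelimb buds of 30 mouse embryos in 10 groups of 3. According to the study's methods and the submitters' processing notes, reads were trimmed with cutadapt 1.16 and mapped to mm10 with STAR 2.7.0e against a custom annotation. The authors deposited the raw read counts per gene that STAR made during mapping, with the strand setting not given in the sources used here. They also deposited FPKM values per gene from Cufflinks 2.2.1, run without strand, with correction for multiply mapped reads and for bias. The notes also name deepTools 3.5.5. The 50833 genes of the count table were named by joining them to the FPKM table by Ensembl identifier, which left 3 identifiers without a row.

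Counts of 20569 protein-coding autosomal genes were fitted with edgeR 4.0.16 (R 4.3.3), using TMM factors, filterByExpr (minimum count 10, minimum total 15) and the two-sided quasi-likelihood test with Benjamini-Hochberg adjustment over all genes tested. Each comparison used the libraries of its own groups, and the change of an effect between times was a contrast on 12 libraries. A gene passed at an adjusted p below 0.05. SE values were derived from the F statistic and 95% intervals used the degrees of freedom of the fit. DESeq2 1.42.0, limma 3.58.1 on log2 FPKM with pseudocounts of 1 and 0.1, other scalings, filters and gene sets, a replicate block and leaving out each library were the alternatives. For genes beside the members, leaving out C59 18 h replicate 3 was added after seeing the data. The scripts were tested on simulated counts. With 18188636 to 38974885 counts per library, the members held from 13 to 4603 counts, which limits *Pax9*, *Alx1* and *Sall4* most.

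Named were all 9 members, *Axin2*, the tissue markers, per list genes past the test with the most extreme differences, *Shh*, *Gli3*, *Gli1* and *Ptch1*, the 3 genes most like each member and the nearest neighbours. Other list genes named here (*Msx2*, *Gata6*, *Irx2*, *Hand1* and *Sall3* at some times) were chosen after their values were seen. A withheld item of a gene list is not reported here. The members and lists were chosen with earlier results of these data known. Same-numbered DMSO and C59 libraries did not deviate together (correlations from -0.133 to 0.103), so replicate numbers were not taken to pair embryos.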

Additional observations from a re-analysis of the deposited data

Results flagged for a closer look

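The effect of C59 differed between times, by the edgeR test of the difference itself, in 15 of the 45 such tests of the 9 genes (log2 scale, later effect minus earlier effect, 3 libraries per group). From 1 h to 6 h it changed by -1.02 for *Alx1* (adjusted p = 0.00216), -0.32 for *Alx4* (adjusted p = 0.0026), -0.98 for *Irx3* (adjusted p = 1.09e-06) and -0.55 for *Irx5* (adjusted p = 0.00423). From 6 h to 12 h it changed by -0.42 for *Pax1* (adjusted p = 0.0234), -0.81 for *Pax9* (adjusted p = 0.0315), -0.22 for *Hand2* (adjusted p = 0.0316) and -0.93 for *Sall4* (adjusted p = 5.38e-04). From 12 h to 18 h it changed by -1.36 for *Pax9* (adjusted p = 0.00217), 0.91 for *Irx3* (adjusted p = 0.0137) and 0.66 for *Irx5* (adjusted p = 0.0264). From 18 h to 24 h it changed by 0.72 for *Pax1* (adjusted p = 0.00856) and 0.89 for *Pax9* (adjusted p = 0.00771). Between 1 h and 24 h it differed by -0.42 for *Sall1* (adjusted p = 0.0115) and -0.78 for *Sall4* (adjusted p = 0.0266). The contrasts that use 1 h or 6 h include the difference in Y-linked level between the groups described in the report.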

How the results depend on the processing

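Of 1618 recomputed values of single members, 1470 kept their direction and side of the threshold, 86 no longer passed it and 26 newly passed it. The other 36 changed sign, and each of these missed the threshold in both settings. The count of members past the test was 0, 0, 1 and 0 at 6, 12, 18 and 24 h with a log2 fold change beyond 1 required in addition. At 18 h it was 6 with the spread shared over all 30 libraries and 6 with DESeq2. At 24 h it was 1 with limma at either pseudocount. With the spread shared over 30 libraries it was 5 for the change from 12 h to 18 h and 0 for the change from 1 h to 24 h. The cause was not tested.

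When one library was left out the counts ranged from 0 to 0 at 1 h, 6 to 8 at 6 h, 6 to 7 at 12 h, 2 to 6 at 18 h (6 without C59 18 h replicate 3) and 1 to 4 at 24 h (1 without DMSO 24 h replicate 1 or 2, and 2 without C59 24 h replicate 2 or 3). For the changes of the effect they ranged from 4 to 5 (1 h to 6 h), 1 to 4 (6 h to 12 h; 1 without DMSO 12 h replicate 3, and 2 without any of the 6 libraries at 6 h), 2 to 5 (12 h to 18 h; 5 without C59 12 h replicate 1), 2 to 2 (18 h to 24 h) and 1 to 3 (1 h to 24 h; 1 without DMSO or C59 1 h replicate 1 or 2, DMSO 24 h replicate 1 or 2 or C59 24 h replicate 2). From 1 h to 24 h they ranged from 7 to 8 within DMSO and 6 to 7 within C59.

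For the values that changed sign with one library left out, the log2 differences ranged at 1 h from -0.060 to 0.044 for *Irx5*, from -0.0093 to 0.25 for *Sall4*, from -0.079 to 0.0028 for *Sall1* and from -0.099 to 0.014 for *Hand2*, at 12 h from -0.085 to 0.15 for *Pax9* and from -0.23 to 0.041 for *Sall1* and at 18 h from -0.17 to 0.033 for *Hand2* and from -0.29 to 0.12 for *Alx1*. They ranged at 24 h from -0.043 to 0.10 for *Irx3*, for the change from 1 h to 6 h from -0.058 to 0.056 for *Hand2* and from -0.062 to 0.22 for *Sall4*, for the change from 12 h to 18 h from -0.18 to 0.20 for *Sall4* and for the change from 18 h to 24 h from -0.17 to 0.21 for *Sall4*, from -0.41 to 0.0026 for *Alx1*, from -0.20 to 0.0032 for *Hand2* and from -0.089 to 0.058 for *Alx4*. At 1 h *Irx5* also changed sign with all genes of the count table (-0.0010) and with limma on FPKM (-0.021 with a pseudocount of 1 and -0.022 with 0.1), *Hand2* at 18 h did with upper-quartile factors (0.0072), and *Sall4* for the change from 18 h to 24 h did with the spread shared over 30 libraries (0.0012).

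With the replicate number as a block the counts were 0, 6, 7, 3 and 3 at 1, 6, 12, 18 and 24 h, 4, 4, 3, 2 and 2 for the changes of the effect, and 7 in DMSO and 6 in C59 from 1 h to 24 h. Since the numbers did not pair the samples, the block is given as a setting only. Depth limits *Pax9* at 1 h most, where a library held as few as 13 counts.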
